A study of Canis lupus familiaris with 8 samples.

Results

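CD4 T cells that shared their T cell receptor with other CD4 T cells of the same dog were compared with those that did not. A cell was taken as CD4 single-positive with at least 1 CD4 UMI and no CD8A UMI (a UMI, or unique molecular identifier, marks 1 captured transcript), and it had to carry exactly 1 rearranged TRB chain, the β chain of the receptor. Cells of 1 dog with the same TRBV gene, TRBJ gene and amino acid junction formed a clone, where the junction is the stretch in which V and J genes are joined. Clones of at least 5 cells were called expanded and clones of 1 cell singletons. Both sides were thus chosen by measured values, namely CD4 and CD8A UMIs and the number of cells with a TRB. Clone size counted CD4 single-positive cells alone, so a singleton may share its TRB with other cells of its dog. Of 31909 cells that passed the filters on UMIs and mitochondrial transcripts, 13247 were CD4 single-positive and 9804 of these carried 1 TRB, with 1291 cells in 112 expanded clones, 7491 singletons and 1022 cells in clones of 2 to 4 cells on neither side. All cells were cryopreserved TCRαβ+ T cells sorted by flow cytometry from the blood of 4 healthy Beagles. Each dog gave 1 5' gene expression library and 1 V(D)J library. The paper states that all dogs had received routine vaccinations, and no other treatment is given. The only female, dog 1, was 5 years old, and the males were 7 (dogs 2 and 3) and 9 (dog 4). Sex and age cannot be told apart from the individual dog here.

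A T cell that meets its antigen divides, and its descendants inherit the rearranged receptor, so that cells with one and the same receptor are taken as one clone. Naive CD4 T cells carry receptors that are each very rare and recirculate through lymph nodes with the help of CCR7. Effector and memory cells gain receptors for tissues and for inflammatory signals, and Th1 cells, which make interferon gamma, carry CXCR3 and the IL-12 and IL-18 receptors. Some CD4 T cells take up genes usually found in killer cells, such as the receptor NKG2D, encoded by KLRK1, and perforin, encoded by PRF1.

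The libraries of dogs 1 and 4 shared receptors. In all, 54 TRB rearrangements were identical in every junction base in both dogs, in 69 cells of dog 1 (1.33% of its 5207 kept cells with 1 TRB) and 1060 cells of dog 4, and 45 of the 46 dog 1 cells that could be compared also had the TRA of dog 4. None of the barcodes was the same in both. Other pairs of dogs shared no such TRB apart from dogs 2 and 3 with 1. The cells concerned included 16 singletons of dog 1 and 2 cells of its clones of 2 to 4 cells. Compared by TRBV gene, TRBJ gene and amino acid junction in place of bases, 17 of the 53 expanded clones of dog 4 had their TRB in another dog. Counts of genes in both comparisons of CD4 cells are given with and without these dog 1 cells, and those of the test between CD4 and CD8A cells with and without dog 1. CD4 transcripts chose the cells and so describe them only. Mean CD4 UMIs per cell were 2.33, 2.17 and 2.08 in expanded clones and 2.25, 2.32 and 2.27 in singletons of dogs 2, 3 and 4.

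Dog 1 had no expanded CD4 clone, and its largest clone held 4 cells. The share of CD4 cells in expanded clones was 0% of 2724 cells in dog 1, with an upper limit of 0.135% (95% exact Clopper-Pearson interval). It was 13.7% in dog 2 (95% exact Clopper-Pearson interval 12.3 to 15.0, 353 of 2586 cells), 10.3% in dog 3 (9.06 to 11.7, 212 of 2049) and 29.7% in dog 4 (27.9 to 31.5, 726 of 2445). The intervals and limits cover counting error only and take cells as independent, which cells of the same clone are not. Clones numbered 38, 21 and 53 in dogs 2, 3 and 4, with largest clones of 40, 56 and 71 cells. In dog 3 the largest clone alone held 26.4% of all expanded cells, against 11.3% in dog 2 and 9.78% in dog 4, and the fewest clones that together held at least as many expanded cells as all the others numbered 5 there, against 11 and 13 in dogs 2 and 4. At the threshold, 26 clones had exactly 5 cells and 32 had exactly 4. Since dog 1 had no expanded side, every comparison of expanded with singleton cells rests on dogs 2, 3 and 4 (n = 3), and dog 1 adds a singleton value only.

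**Figure D1:**
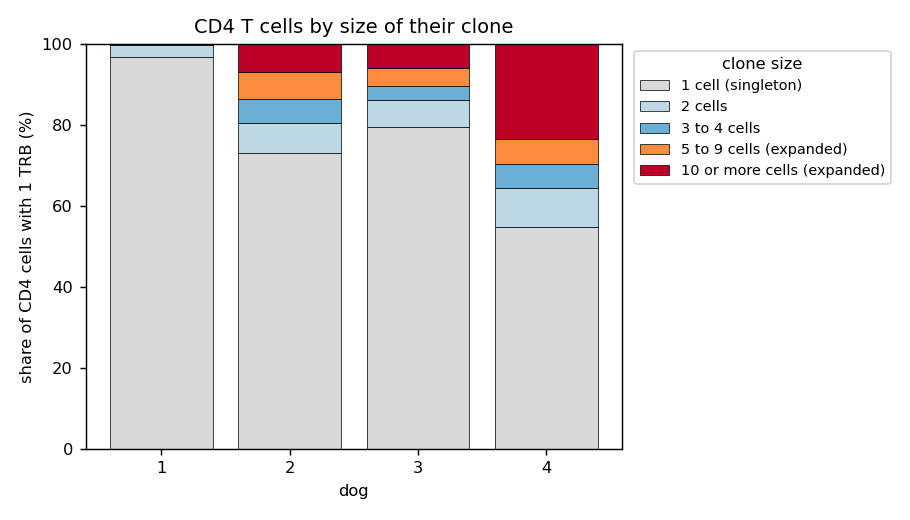
Share of CD4 single-positive cells with 1 TRB (y axis, %) by the size of their clone, 1 bar per dog (x axis), with colours for clone sizes. Orange and red segments, the expanded clones, are absent in dog 1 and make up 13.7%, 10.3% and 29.7% of the bar in dogs 2, 3 and 4.

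The junctions of the largest clone in each dog are shown because they define its cells. They run from the codon of the conserved cysteine to that of the conserved phenylalanine or tryptophan, in lower case where the deposited alignment gives them to the V or J gene and in capitals for the bases between, which include any D gene. The TRB made the clone. The TRA, the α chain, was not used to make it and is the one found in most of its cells with a TRA, in 31 of 40 cells in dog 2, 52 of 56 in dog 3 and 68 of 71 in dog 4.
Dog 2 clone 1, 40 cells, TRBV3-2 with TRBJ2-5: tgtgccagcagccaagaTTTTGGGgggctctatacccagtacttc
Dog 2 clone 1, TRAV38-2 with TRAJ54: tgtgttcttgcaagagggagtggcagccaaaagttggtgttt
Dog 3 clone 1, 56 cells, TRBV15 with TRBJ1-2: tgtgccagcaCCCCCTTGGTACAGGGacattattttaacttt
Dog 3 clone 1, TRAV9-10 with TRAJ33: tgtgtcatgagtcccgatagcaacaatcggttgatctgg
Dog 4 clone 1, 71 cells, TRBV16 with TRBJ2-1: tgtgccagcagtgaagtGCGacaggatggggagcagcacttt
Dog 4 clone 1, TRAV43-1 with TRAJ34: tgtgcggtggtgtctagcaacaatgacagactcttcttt
The largest clones used 3 different TRBV genes and shared no junction, and the bases between V and J numbered 7, 16 and 3 in these TRB chains.

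The TRA, which the definition did not use, was nearly uniform within clones. Of 1177 expanded cells with a TRA, in 110 clones with a TRA in at least 2 cells, 1173 carried the main TRA of their clone, and in 106 of the 110 clones every such cell did. By dog the share was 99.7%, 99.5% and 99.7% in dogs 2, 3 and 4. A TRA was found in 87.5%, 91.5% and 92.8% of expanded cells and in 73.7%, 75.5% and 77.1% of singletons, lower in singletons in all 3 dogs. No singleton of dogs 2, 3 and 4 had a TRB junction 1 base away from that of an expanded clone with the same V and J genes, while 10 of 3656 singletons of dogs 2, 3 and 4 with a TRA had the main TRA of an expanded clone of their dog.

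Expanded clones of different dogs were almost always unlike. Across dogs, a single pair of expanded clones had the same TRBV and TRBJ genes and junctions that differed by at most 1 amino acid, shown here because it is the only such pair.
Dog 2 clone 26, 5 of 6 cells, TRBV3-2 with TRBJ1-2: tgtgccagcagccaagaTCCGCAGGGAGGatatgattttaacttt
Dog 4 clone 34, 8 cells, TRBV3-2 with TRBJ1-2: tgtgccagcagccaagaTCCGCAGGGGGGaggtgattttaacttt
These junctions of 45 bases differed at 3 bases, and the TRA chains used different genes (TRAV43-5 with TRAJ13 in dog 2 and TRAV43-1 with TRAJ34 in dog 4).

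V and J gene use of expanded clones, each clone counted once, was set against that of singletons, where an exact two-sided sign-flip permutation test over 3 dogs cannot go below p = 0.25. TRBV16 was the most used V gene with 24 of 112 expanded clones (21.1%, 33.3% and 16.98% in dogs 2, 3 and 4, against 18.6%, 21.5% and 17.4% of singletons). TRBV7 (18 expanded clones) was at 15.8%, 14.3% and 16.98% against 13.3%, 13.1% and 10.8% of singletons. TRBV5-2 was lower in expanded clones in all 3 dogs, at 2.63%, 4.76% and 5.66% against 9.17%, 9.20% and 9.26%, from 5 expanded clones in all. TRBV3-1 was lower too, at 2.63%, 0% and 5.66% against 7.84%, 7.23% and 9.78%, as was TRBJ2-3, at 7.89%, 4.76% and 5.66% against 13.9%, 11.8% and 12.02%. TRBV3-2 (14 expanded clones) was higher in all 3 dogs, at 18.4%, 14.3% and 7.55% against 10.3%, 8.58% and 5.90%. The share of clones with a TRBJ2 gene differed by -15.6, 10.9 and -14.3 percentage points between expanded clones and singletons of dogs 2, 3 and 4, and turned direction with the size that made a clone expanded. Mean TRB junction length was 13.97, 14.05 and 14.2 amino acids in expanded clones and 14.3, 14.5 and 14.4 in singletons, shorter in 3 of 3 dogs, with differences of -0.340, -0.423 and -0.132 (exact permutation p = 0.25, the smallest that 3 dogs allow). None of these differences could be tested to the 5% threshold.

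Most expanded CD4 clones held CD4 cells alone among their single-positive cells. The TRB of 17 of 112 expanded clones was also found in CD8A single-positive cells (at least 1 CD8A UMI and no CD4 UMI), in 4 of 38 clones in dog 2, 10 of 21 in dog 3 and 3 of 53 in dog 4. Over all expanded clones this came to 48 CD8A cells beside 1291 CD4 cells, with 72 cells that had both transcripts and 528 with neither. Cells with neither made up 27.2% of all cells with these receptors, so the clone sizes above, which count CD4 cells alone, are lower limits. In dog 3, 2 clones stood apart: clone 5 had 12 CD4 cells, 7 CD8A cells and 17 with both, and clone 7 had 9, 9 and 24. In dog 2 clones 3 and 7 had 20 and 12 CD4 cells beside 6 and 9 CD8A cells. The receptors of the 3 clones with the most CD8A cells (9, 7 and 9) are shown, chosen after their values were seen.
Dog 2 clone 7, TRBV26 with TRBJ1-6: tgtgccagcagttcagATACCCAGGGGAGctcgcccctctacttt
Dog 3 clone 5, TRBV4-3 with TRBJ2-5: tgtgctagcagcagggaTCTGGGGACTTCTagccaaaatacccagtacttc
Dog 3 clone 7, TRBV16 with TRBJ1-1: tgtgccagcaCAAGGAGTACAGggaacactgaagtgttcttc
In no expanded CD4 clone did CD8A single-positive cells outnumber CD4 cells.

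**Figure D2:**
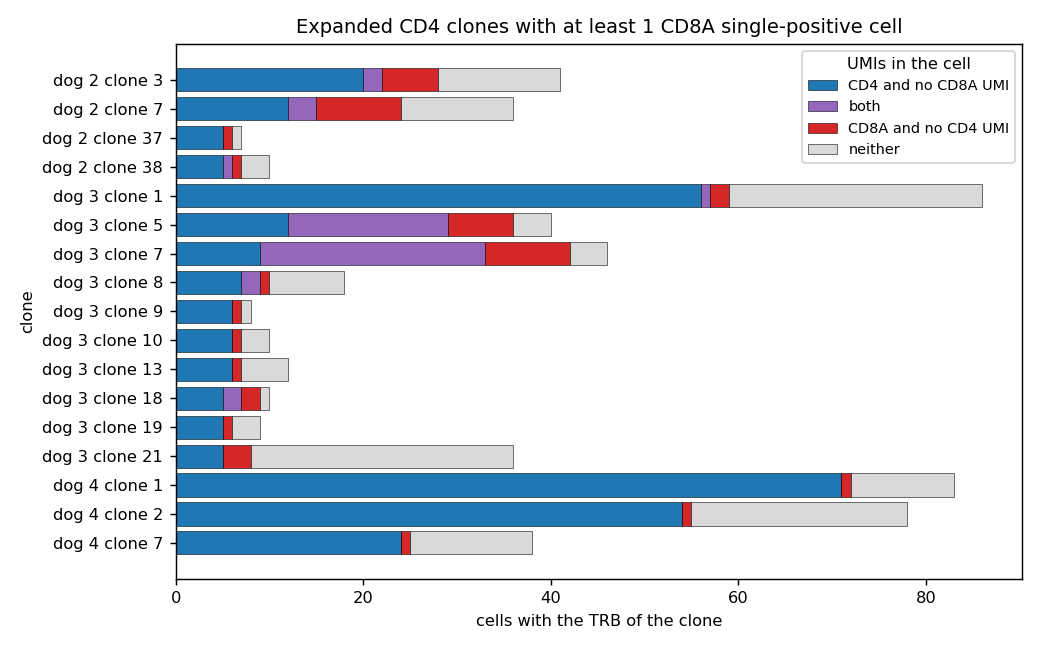
Cells (x axis) that carry the TRB of each of the 17 expanded CD4 clones with at least 1 CD8A single-positive cell (y axis, 1 bar per clone), split by which of CD4 and CD8A had a UMI. Dog 3 clones 5 and 7 have more cells with both transcripts (17 and 24) than with CD4 alone (12 and 9), and clones 1 and 2 of dog 4 have 1 CD8A cell each.

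For gene expression, UMIs were summed over the expanded cells and over the singletons of each dog and compared with edgeR's quasi-likelihood test with the dog as a block, since both sums of a dog come from the same library. Levels are given as CPM, UMIs per 1000000 UMIs of the summed cells. Log2 fold changes are given with a standard error, taken as the log2 fold change divided by the root of its F statistic, and p-values are adjusted by Benjamini-Hochberg over all 9509 genes tested. In such sums, more cells with a transcript and more transcript per cell cannot be told apart. Expanded cells were higher for 741 genes (7.79%) and lower for 680 (7.15%), 14.9% of genes in all at an adjusted p under 0.05, with a median log2 fold change over all genes of -0.01. Without regard to the test, the 3 expanded values lay above the 3 singleton values of these dogs for 13.7% of genes and below them for 14.2%. The same test without the dog 1 cells that share a TRB with dog 4 gave 741 and 681 genes. With the dog as a block and no expanded sum in dog 1, its singletons could hardly move this count. The dog 4 cells with shared receptors stayed in, and their part was not tested. Expanded cells had more UMIs in all 3 dogs, with medians of 4888, 5130 and 4741 per cell against 3922, 3893 and 3936 in singletons (exact permutation p = 0.25), and with every cell thinned to 2000 UMIs the counts were 379 and 339 of 8633 genes. The counts were 469 and 413 without the dog block (849 of them shared with the calls above), 418 and 442 without dog 2 (819 shared) and 453 and 379 without dog 4 (754 shared). Naive cells carry CCR7 and LEF1, and among cells of both sides without a UMI of these or of a further gene used with them (cells without naive marker UMIs) the counts were 87 and 165 of 7354 genes (210 shared). Genes that lost their call among cells without naive marker UMIs are named with their group. ACTG1, CMA1, CXCL10, FOXP3, ICOS, ISG20, KLRD1, MCM5, MT-ATP6, MYO1F, STAT3, XAF1 and ZNF683, all called with the dog block, were not called without it. With DESeq2 in place of edgeR and the block kept, CMA1, CRTAM, EOMES, FOXP3, ICOS, ITGAE and STAT3 were not called.

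Genes that rose included a gut homing receptor, NK-type receptors and a chain of the IL-12 receptor. CCR9, the receptor for the gut chemokine CCL25, was at 269, 249 and 262 CPM in expanded cells of dogs 2, 3 and 4 and at 30.7, 29.2 and 32.1 in their singletons. The 3 expanded values were close to each other and above every singleton value, including 8.55 in dog 1, and the log2 fold change was 3.08 ± 0.09 (adjusted p = 1.5e-10, edgeR). A CCR9 UMI was found in 64.3%, 64.6% and 64.6% of expanded cells and in 7.53%, 6.19% and 7.84% of singletons, and after thinning to 2000 UMIs in 37.7%, 40.0% and 39.6% against 4.36%, 3.54% and 4.70%. The sort held no cell type known to lack CCR9, and the lowest share was 2.20% in the singletons of dog 1, whose cells had a median of 3822 UMIs.

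Among the other 15 homing receptor genes of the list, 3 rose and 5 fell, so that the list's median log2 fold change was -0.16 (14 of 16 tested). CXCR3, the receptor of chemokines induced by interferon gamma, rose from 47.2, 48.7 and 76.7 to 129, 121 and 154 CPM in dogs 2, 3 and 4, a log2 fold change of 1.23 ± 0.10 (adjusted p = 5.2e-06, edgeR), and CCR2, a receptor for inflammatory chemokines, rose as well. GPR25, a G protein-coupled receptor, was nearly absent from expanded cells, at 7.09, 0.923 and 10.5 against 94, 97.7 and 159 in singletons, with no overlap and a log2 fold change of -4.09 ± 0.19 (adjusted p = 2e-08, edgeR). CCR4, a receptor of skin-homing, Th2 and regulatory cells, was at 1.18, 0.923 and 1.79 against 18.3, 17.2 and 15.7 (-3.51 ± 0.33, adjusted p = 1.7e-05, edgeR). CXCR4 and GPR15 also fell. CCR10, a receptor of skin and mucosal homing, had 3 UMIs in expanded cells against 158 in singletons of the same dogs. The ratio of singletons to expanded cells was 16.2 (exact counting interval 5.46 to 79.6). Here and below, such ratios pool dogs 2, 3 and 4 without pairing, and their intervals take UMIs as independent and cover counting error only. Members of this list thus moved in both directions.

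Integrin genes separated the sides as strongly. ITGB1, the β1 chain shared by many integrins, was at 44.3, 9.23 and 30.8 CPM in expanded cells of dogs 2, 3 and 4 against 328, 314 and 450.1 in singletons. All 3 expanded values lay below all singleton values, dog 1 included at 155, and the log2 fold change was -3.67 ± 0.19 (adjusted p = 7.7e-08, edgeR). By contrast ITGB7 and ITGA4, the chains of the gut homing integrin α4β7, rose: ITGB7 was at 391, 325 and 516 against 173, 200.5 and 246 (0.99 ± 0.08, adjusted p = 4.9e-06, edgeR) and ITGA4 at 150.2, 162 and 143 against 85.9, 78.2 and 92.9 (0.81 ± 0.10, adjusted p = 9.1e-05, edgeR). Of 14 integrin and adhesion genes tested, 6 rose (ITGA4, ITGB2, ITGB7, CD2, ICAM1, LGALS1) and 3 fell (ITGA1, ITGAE, ITGB1), with a median of 0.25. ITGA4 did not keep its call among cells without naive marker UMIs, while ITGB1 was at -3.94 there.

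Of 13 Th1 genes tested, 9 rose and none fell, with a median log2 fold change of 0.96, and without dog 3, 8 were higher and 2 lower. IL12RB2, the inducible chain of the IL-12 receptor, was at 114, 86.8 and 171 CPM in expanded cells against 17.4, 14.6 and 23.6 in singletons (2.72 ± 0.10, adjusted p = 1.5e-09, edgeR). IL18R1, a chain of the IL-18 receptor, was at 181, 179 and 190.5 against 59.7, 62.5 and 90.1 (1.38 ± 0.11, adjusted p = 2.5e-06, edgeR). IL12RB1, IL18RAP, TBX21, ALDOC and TNF rose too, while STAT4, IFNGR1 and IL2 did not pass. IFNG itself, named after its values were seen, rose in the fit but was uneven, at 32.5, 5.54 and 35.6 in expanded cells of dogs 2, 3 and 4 against 4.45, 7.30 and 6.83, so that dog 3 was within the range of the singletons. TBX21, the transcription factor T-bet, was at 38.4, 41.6 and 44.3 against 14.6, 15.5 and 24.2 (1.17 ± 0.16, adjusted p = 0.0002, edgeR), but at 0.12 (adjusted p = 0.87, edgeR) among cells without naive marker UMIs, where 4 of 13 Th1 genes were called.

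**Figure D3:**
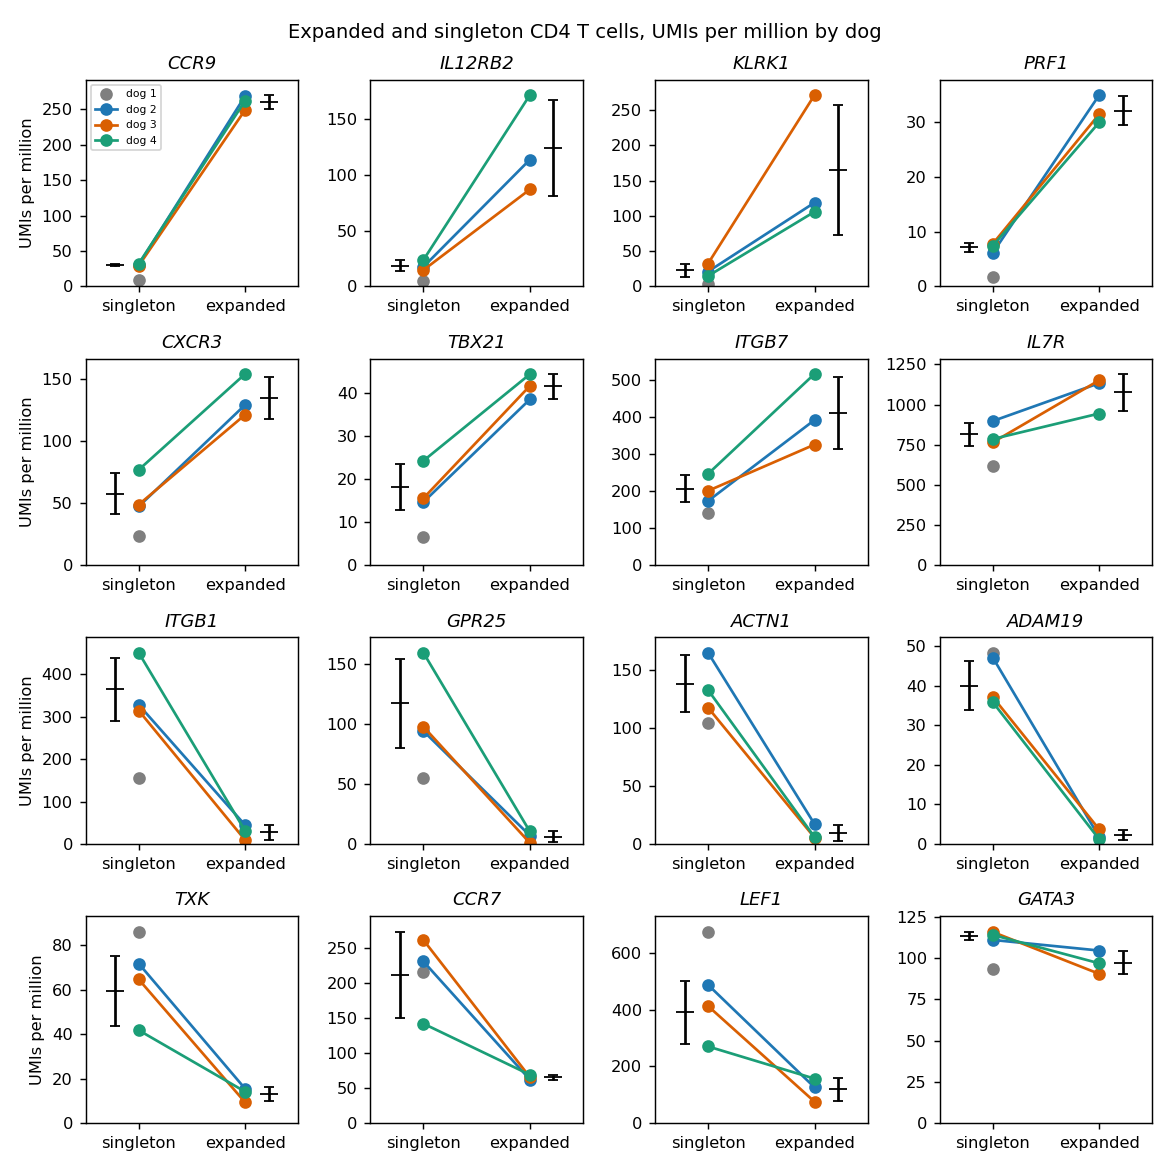
CPM (y axes, linear and starting at 0) in singleton and expanded CD4 cells for 16 genes, with 1 point per dog, lines that join both sides of a dog and bars for the mean and SD of dogs 2, 3 and 4. CCR9 runs from 29.2 to 32.1 in singletons of dogs 2, 3 and 4 to 249 to 269 in expanded cells, ITGB1 runs the other way, and GATA3 stays between 90.5 and 116 in these dogs.

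NK-type receptors and their adaptors rose in 6 of 9 tested genes and fell in none, with a median log2 fold change of 1.79, and without dog 3, 7 of 10 were higher and 2 lower. KLRK1 was at 119, 271 and 106 CPM in expanded cells of dogs 2, 3 and 4, highest in dog 3, and at 21, 32.4 and 14.8 in singletons (2.81 ± 0.11, adjusted p = 5e-09, edgeR). KLRD1, which encodes CD94, was at 14.8, 92.3 and 27.5 against 7.89, 11.7 and 6.83 (2.13 ± 0.29, adjusted p = 0.00024, edgeR), highest in dog 3, and lost its call without the dog block. One clone gave 22.6% of its expanded UMIs. CD244, an NK and T cell receptor of the SLAM family, was at 15.4, 0.923 and 17.9 against 1.53, 0.456 and 2.40 (2.94 ± 0.35, adjusted p = 8e-05, edgeR), with dog 3 low on both sides and its expanded value below the singletons of dogs 2 and 4. HCST, the adaptor of NKG2D, NCR3 and SLAMF7 rose too.

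Of 12 cytotoxic effector genes tested, 3 rose, CTSW fell and 8 did not pass, with a median log2 fold change of 0.38. Without dog 3 the list had 5 genes higher and 1 lower, without dog 4 it had 5 and 0, and without clones that had CD8A cells 5 and 1. That last setting left out all 35 expanded clones with any cell with a CD8A UMI, cells with both transcripts included. It kept 243, 51 and 413 expanded cells of dogs 2, 3 and 4. PRF1 rose from 6.11, 7.76 and 7.39 to 34.9, 31.4 and 29.9 CPM (2.18 ± 0.19, adjusted p = 9.9e-06, edgeR). ZNF683, the tissue-residency factor Hobit, was at 56.2, 142 and 62.2 against 29, 56.6 and 37.5 (1.007 ± 0.12, adjusted p = 8e-05, edgeR) and CMA1, a chymase gene, at 92.8, 188 and 84.6 against 53.3, 60.8 and 68.9 (0.89 ± 0.18, adjusted p = 0.0046, edgeR), and neither kept its call among cells without naive marker UMIs. Granzyme K, encoded by GZMK, was at 159, 127 and 103 in expanded cells and 64.3, 106 and 152 in singletons (0.30 ± 0.23, adjusted p = 0.45, edgeR), lower than singletons in dog 4 and, in dog 2, with 82.5% of its UMIs from 1 clone. Its log2 fold change was -0.20 without dog 2 and passed the test at 0.81 without dog 4 and at 0.79 without clones that had CD8A cells. The chemokine gene CCL5 (0.48 ± 0.30, adjusted p = 0.33, edgeR) and KLRG1 (0.10 ± 0.29, adjusted p = 0.87, edgeR), an inhibitory receptor of late effector cells, did not pass either, and both passed in either direction under alternatives. CCL5 passed at 0.94 without dog 3, at -1.41 with at least 2 CD4 UMIs and at -1.17 in clones of 10 or more cells, and KLRG1 at 0.95 without dog 4 and at -0.41 without dog 3. GZMB, FASLG and CCL4 were tested and not called. Among effector transcription factors, TBX21, EOMES and HOPX rose of 9 tested. EOMES was at 4.14, 12 and 5.98 against 1.91, 2.43 and 1.66 (1.79 ± 0.38, adjusted p = 0.0057, edgeR) and lost its call without dog 4, and HOPX rose by less, at 890.3, 850.5 and 760.5 against 662, 609 and 622 (0.39 ± 0.06, adjusted p = 0.00074, edgeR), without keeping its call among cells without naive marker UMIs.

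Further genes with large rises came from no list. MMP9, the gelatinase of matrix breakdown, was at 14.2, 52.6 and 8.67 CPM in expanded cells against 1.78, 1.52 and 1.11 in singletons (3.90 ± 0.39, adjusted p = 2.5e-05, edgeR), with UMIs in 31 of 112 clones. C9H17orf64, an uncharacterized gene, was at 41.4, 143 and 54.1 against 8.27, 11.1 and 7.39 (3.02 ± 0.21, adjusted p = 1.1e-06, edgeR) and had UMIs in 48 clones. Both were highest in dog 3. The kinase gene FES was at 28.4, 25.9 and 30.2 against 4.84, 6.39 and 5.73 (2.33 ± 0.20, adjusted p = 8.1e-06, edgeR). LZTFL1, a ciliary trafficking gene that neighbours CCR9 in the human genome, was at 29.6, 16.6 and 25.1 against 5.98, 4.56 and 4.99 (2.20 ± 0.21, adjusted p = 1.8e-05, edgeR). GPR55, a lipid receptor, TSPAN13, the phosphatase gene PTPN13, the adaptor gene CLNK, CCDC92 and ACOXL rose by 2.20, 2.07, 2.03, 1.85, 1.82 and 1.802 on the log2 scale. PTPN13 and CLNK did not keep their calls among cells without naive marker UMIs.

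Naive and stem-like genes fell in 10 of 17 tested members and rose in none, with a median log2 fold change of -0.54. CCR7 fell from 231, 262 and 142 to 62.1, 65.6 and 69.1 CPM in dogs 2, 3 and 4 (-1.59 ± 0.14, adjusted p = 1.1e-05, edgeR), and the expanded values were alike in the 3 dogs. LEF1, a transcription factor of naive T cells, fell from 487, 412 and 269.7 to 125, 74.8 and 156 (-1.62 ± 0.20, adjusted p = 0.00011, edgeR), and dog 4 had the lowest singleton value of dogs 2, 3 and 4 for both genes. ACTN1, an actin crosslinker, was at 17.1, 5.54 and 5.98 against 165, 117 and 132 (-3.94 ± 0.18, adjusted p = 1.9e-08, edgeR) and TXK, a Tec family kinase, at 15.4, 9.23 and 14.1 against 71.8, 64.7 and 41.7 (-2.04 ± 0.17, adjusted p = 4.3e-06, edgeR), of which TXK was not called among cells without naive marker UMIs. TCF7, BACH2, FOXP1, SATB1 and IL6R fell too, whereas KLF3, KLF7, S1PR1, FOXO1, NOSIP, HOMER2 and BCL11B did not pass.

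Large falls were also found in genes that are not classic naive markers. RFLNB, a regulator of filamin, had 2 UMIs in all expanded cells of dogs 2, 3 and 4 together, against 575 in their singletons. The pooled ratio of singletons to expanded cells was 88.6, with an exact counting interval of 24.4 to 734. It does not take account of the dogs' unlike singleton levels, at 30.8, 39.2 and 13.9 CPM in dogs 2, 3 and 4. ADAM19, a membrane protease gene, was at 1.77, 3.69 and 1.20 CPM against 47.1, 37.1 and 35.8 (-4.42 ± 0.25, adjusted p = 1.4e-07, edgeR), with UMIs in 9 of 112 clones. CCDC3 was at 20.1, 1.85 and 2.09 against 83.5, 48.5 and 60.6 (-3.20 ± 0.31, adjusted p = 1.9e-05, edgeR). CSTA, the protease inhibitor cystatin A, was at 45.5, 33.2 and 1.495 against 303, 331 and 60.03 (-3.26 ± 0.21, adjusted p = 3.5e-07, edgeR) and differed by dog, with dog 4 lowest on both sides. RGS10, a brake on G protein signals, was at 12.4, 20.3 and 19.4 against 212, 155 and 57.8 (-2.73 ± 0.28, adjusted p = 3.1e-05, edgeR), but turned to 0.89 (adjusted p = 0.22, edgeR) among cells without naive marker UMIs, whereas ADAM19, ACTN1, CCDC3 and CSTA kept their direction and call there.

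Regulatory T cell genes fell in 6 of 10 tested members and rose in none (median -1.60). FOXP3, the lineage factor of regulatory T cells, was at 2.96, 19.4 and 1.79 CPM in expanded cells against 24.7, 29.97 and 24.8 in singletons (-2.21 ± 0.40, adjusted p = 0.0021, edgeR). The distance was small in dog 3, and the call was lost without the dog block and with DESeq2 (adjusted p = 0.077, DESeq2). TNFRSF18, which encodes GITR, was at 7.69, 8.31 and 8.67 against 23.5, 25.4 and 40.8 (-1.95 ± 0.20, adjusted p = 2.5e-05, edgeR), and TNFRSF4, which encodes OX40, at 1.77, 0.923 and 3.89 against 13.1, 15.5 and 23.8 (-2.83 ± 0.29, adjusted p = 2.9e-05, edgeR). IKZF2 and CCR4 fell too, and IL10 had 1 UMI in expanded cells against 52 in singletons, a ratio of 16.03 (exact counting interval 2.75 to 645), while IL2RA, CTLA4, IKZF4 and TIGIT did not pass.

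Few genes of other helper types passed the test. GATA3, the Th2 factor, was at 105, 90.5 and 96.9 CPM in expanded cells and 111, 116 and 114 in singletons (-0.23 ± 0.09, adjusted p = 0.11, edgeR), and LGALS3, which encodes galectin 3, at 153, 158 and 61.6 against 114, 125 and 137 (-0.14 ± 0.22, adjusted p = 0.75, edgeR), lower than singletons in dog 4 alone. Among cells without naive marker UMIs both were lower in expanded cells, GATA3 at -0.66 (adjusted p = 0.0047, edgeR) and LGALS3 at -1.04 (adjusted p = 0.0027, edgeR). LGALS3 also passed in either direction when 1 dog was left out, at -0.37 without dog 3 and at 0.37 without dog 4. GATA3 passed at -0.36 without clones that had CD8A cells. Of 5 Th2 genes tested, CCR4 fell and the others did not pass (3 were lower without dog 3), and IL4, IL5 and IL13 had too few UMIs to be tested. Among Th17 genes, STAT3 rose (0.33 ± 0.08, adjusted p = 0.018, edgeR), but it was not called without dog 2, without dog 3, after thinning, with DESeq2, in clones of 10 or more cells or without clones that had CD8A cells. Follicular helper genes and inhibitory receptors were mixed, with ICOS and TOX2 higher and CXCR5 and BTLA lower of 11 tested (0 and 3 without dog 2, 2 and 0 without dog 4), where CXCR5 had 2 UMIs in expanded cells against 72 in singletons (ratio 11.1, exact counting interval 2.96 to 93.4). ICOS, a costimulatory receptor, was at 179, 134 and 213 against 122, 109 and 167 (0.39 ± 0.08, adjusted p = 0.0047, edgeR), not called without dog 2 or among cells without naive marker UMIs, and PDCD1, which encodes PD-1, at 15.4, 11.1 and 7.48 against 12.3, 16 and 18.3 (-0.55 ± 0.28, adjusted p = 0.22, edgeR), which passed at -1.02 without dog 2.

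Memory and activation genes were split. IL7R, the receptor for the survival cytokine IL-7, was at 1133, 1152 and 944 CPM in expanded cells against 897, 765 and 785 in singletons (0.39 ± 0.07, adjusted p = 0.002, edgeR), and IL2RB, IL2RG, BCL2, S100A11 and VIM rose as well. SAMHD1, an enzyme that limits nucleotide pools, fell from 92.1, 57.2 and 91.6 to 20.7, 7.39 and 23 (-2.18 ± 0.13, adjusted p = 2.6e-07, edgeR), ID3, an inhibitor of E proteins, from 147, 133 and 113 to 55, 55.4 and 29.6 (-1.57 ± 0.12, adjusted p = 3.4e-06, edgeR), and CD27, a costimulatory receptor lost late in differentiation, from 217, 202 and 218 to 95.8, 82.2 and 141 (-0.996 ± 0.11, adjusted p = 5.6e-05, edgeR). With SELENOP and LTB, 5 of 16 genes of this list fell and 6 rose (median 0.11). ID3 lost its call among cells without naive marker UMIs. In the activation list 8 of 15 genes rose and 2 fell (median 0.30), led by the cyclin genes CCND3 at 440.4, 422 and 438 against 215, 202 and 208 (1.05 ± 0.06, adjusted p = 2.6e-07, edgeR) and CCND2 at 277, 360.1 and 284 against 149.9, 139.9 and 139 (1.081 ± 0.09, adjusted p = 7.4e-06, edgeR).

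Most genes of dividing cells were lower or not called. Of 11 proliferation genes tested, 4 fell and 1 rose (median -0.81), and 2 were lower without dog 4. MKI67, the marker Ki-67, was at 13.6, 0 and 3.59 CPM in expanded cells and 41.9, 23.1 and 43.2 in singletons (-2.76 ± 0.32, adjusted p = 8e-05, edgeR), and 1 clone gave 48.6% of its expanded UMIs. STMN1, which encodes stathmin, fell from 379, 412 and 235 to 225, 184 and 159 (-0.81 ± 0.09, adjusted p = 5.9e-05, edgeR), and TOP2A and KIF15 fell too. MCM5, a helicase subunit of DNA replication, was at 29, 23.1 and 6.28 against 10.6, 5.78 and 2.03 (1.64 ± 0.24, adjusted p = 0.00039, edgeR) and was not called among cells without naive marker UMIs.

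Of 18 immediate early and heat shock genes tested, 7 immediate early genes fell and the heat shock genes HSPA8 and HSPB1 rose (list median -0.24). Without dog 3, 13 of 18 genes of the list were lower and 1 higher, and without dog 4, 4 of 19 and 1. JUNB, an AP-1 subunit, was at 125, 83.1 and 96.3 CPM against 251, 173 and 249.7 (-1.17 ± 0.09, adjusted p = 2.6e-06, edgeR), NR4A2, an orphan receptor induced by receptor signals, at 30.2, 24.9 and 23.6 against 57.1, 45.9 and 70.7 (-1.22 ± 0.14, adjusted p = 6.9e-05, edgeR) and DUSP2, a phosphatase gene, at 43.7, 94.2 and 30.5 against 111, 158 and 122 (-1.37 ± 0.17, adjusted p = 0.00013, edgeR). Their values did not overlap between the sides. Interferon-stimulated genes were split, with 4 of 19 higher and 5 lower (median -0.11, and 3 lower without dog 4): BST2 rose from 204, 242 and 333 to 432, 549 and 471 (0.91 ± 0.11, adjusted p = 8e-05, edgeR) and ISG20 from 147, 119 and 188 to 255, 208 and 254 (0.66 ± 0.09, adjusted p = 0.0002, edgeR), neither of which kept its call among cells without naive marker UMIs, and XAF1 was at 24.8, 18.5 and 35.9 against 52.7, 30.4 and 57.3 (-0.82 ± 0.12, adjusted p = 0.0005, edgeR). CXCL10, a chemokine gene induced by interferon, had no UMI in expanded cells of dogs 2 and 3 and 8.97 CPM in dog 4 against 6.24, 11.9 and 49.3 in singletons (-2.75 ± 0.33, adjusted p = 9.1e-05, edgeR).

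Cytoskeleton genes rose in 8 of 15 tested and fell in none (median 0.19), with CSRP1 at 201, 263 and 209.6 CPM against 104, 119 and 129 (0.92 ± 0.09, adjusted p = 2.8e-05, edgeR), MYO1F at 0.92 ± 0.10 (adjusted p = 6.1e-05, edgeR) and ACTG1 at 0.33 ± 0.05 (adjusted p = 0.0011, edgeR) on the log2 scale, the last 2 of which were not called among cells without naive marker UMIs. Glycolysis genes were mixed (5 of 12 higher, 3 lower, median 0.17, and 3 higher without dog 2 or dog 4), and ALDOC, an aldolase gene, was at 161, 139 and 192 against 65.8, 87.3 and 108 (0.93 ± 0.10, adjusted p = 6.1e-05, edgeR). Mitochondrially encoded genes fell in 11 of 12 (median -0.44), for example MT-ATP6 from 2874, 3137 and 2306 to 1833, 2382 and 1481 (-0.57 ± 0.07, adjusted p = 7.8e-05, edgeR), and none of the 11 was called without the dog block. Median mitochondrial shares per cell, on which cells had been filtered, were 1.47%, 1.84% and 1.04% in expanded cells and 2.20%, 2.36% and 1.56% in singletons. Of 17 ribosomal protein genes none fell (median -0.08), although 4 were lower without dog 3, and of the cytoskeleton genes 5 were higher without dog 4 and 1 was lower without dog 2. ACTG1 (0.32, adjusted p = 0.065, edgeR) was not called without dog 4.

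Markers of B cells, of platelets and erythroid cells and of γδ T and NK cells were low on both sides, whereas S100A8 of the monocyte list was not. Summed over 7 B cell genes, levels were 4.14 to 6.46 CPM in expanded cells and 9.24 to 11.1 in singletons, over 6 platelet and erythroid genes 0 to 1.20 and 0.761 to 2.40, and over 4 γδ T and NK cell genes 0 and 0 to 0.152. Of the list of CD8 lineage genes, CRTAM (-2.88 ± 0.57, adjusted p = 0.0038, edgeR), at 1.18, 0 and 0.598 CPM in expanded cells, and ITGAE (-0.58 ± 0.14, adjusted p = 0.011, edgeR) fell and 2 were not called. ITGAE was at -0.14 (adjusted p = 0.796, edgeR) among cells without naive marker UMIs, and its call was also lost with at most 5 cells per clone, without the largest clone of each dog and with DESeq2. CRTAM lost its call with DESeq2 too (adjusted p = 0.051, DESeq2). Of 8 monocyte and dendritic cell genes only S100A8 had enough UMIs to be tested, while LYZ, CSF1R, CD68, CD163 and the others did not, and S100A8 was at 3321, 2977 and 3570.4 in expanded cells against 1938, 2252 and 2467 (0.57 ± 0.07, adjusted p = 6.8e-05, edgeR). Its difference turned to -0.01 among cells without naive marker UMIs, and the part of other cell types in it was not tested.

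Levels were then followed over the size of the clone, with singletons, clones of 2, of 3 to 4, of 5 to 9 and of at least 10 cells. CCR7 was lower in clones of 2 cells than in singletons in every dog. In dog 4 it was at 142, 44.3, 44.5, 56.8 and 72.1 CPM in these 5 classes and in dog 2 at 231, 101, 90.01, 83.9 and 40.8. CCR9 was higher in each class than in singletons, at 30.7, 189.9, 217, 297 and 241 in dog 2, 29.2, 79.4, 106, 254 and 246 in dog 3 and 32.1, 82.1, 175, 209 and 275 in dog 4. ITGB1 was lowest in the largest clones, at 328, 307, 122, 57.6 and 31.5 in dog 2, 314, 438, 172, 15.8 and 4.70 in dog 3 and 450.1, 576, 546, 134 and 5.94 in dog 4. In dogs 1, 3 and 4 clones of 2 cells had more ITGB1 than singletons (in dog 1, 491 against 155), and in dog 4 clones of 3 to 4 cells did as well. GPR25 followed a like order in dog 4, at 159, 150.2, 142, 38.4 and 3.71, and ADAM19 was already low in clones of 3 to 4 cells of dog 4, at 35.8, 31.3, 3.42, 0 and 1.49. Since clone size made these classes, cells of the same clone share their origin and the classes share a library, these levels are a description without a test.

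**Figure D4:**
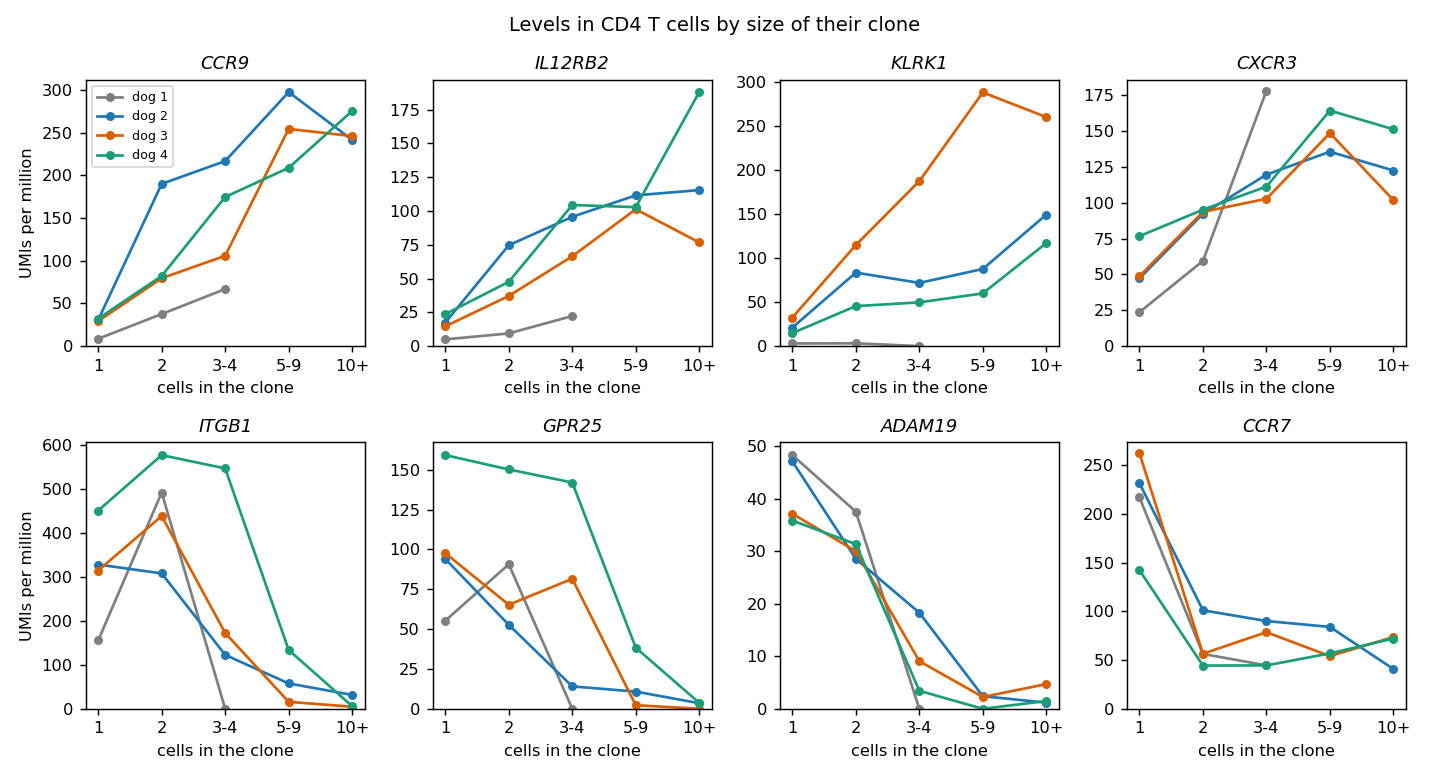
CPM (y axes, linear) of 8 genes in CD4 cells by the number of cells in their clone (x axes), with 1 line per dog. CCR7 drops between clones of 1 and 2 cells, CCR9 is above its singleton level in every class of dogs 2, 3 and 4 and ITGB1 in dog 4 stays at 450.1 to 576 up to clones of 4 cells before it falls to 5.94. Dog 1 has 3 clones with 10 cells in its class of 3 to 4 cells and none above.

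Clones of 2 to 4 cells, which all 4 dogs had (90, 346, 206 and 380 cells), were also tested against singletons. Of 8970 genes, 480 were higher (5.35%) and 366 lower (4.08%), 9.43% in all, and 474 and 370 without the dog 1 cells that share a TRB with dog 4. The counts were 7 and 21 without the dog block, all of them among these calls, and 249 and 174 without dog 2, of which 394 were among them. This comparison shares its singletons with that of expanded clones, so values are set side by side without a test between them. CCR9 was at 41.1, 202, 89.1 and 118 CPM in clones of 2 to 4 cells of dogs 1, 2, 3 and 4 (log2 fold change 2.13 ± 0.14, adjusted p = 5.6e-09, edgeR) and IL12RB2 at 11, 83.9, 47.9 and 69.6 (1.81 ± 0.16, adjusted p = 1.4e-07, edgeR). KLRK1 was at 2.74, 78.3, 142 and 47 (1.86 ± 0.14, adjusted p = 2.6e-08, edgeR), with dog 1 at the level of its singletons, 3.01. CCR7 and LEF1 fell, with log2 fold changes of -1.66 ± 0.11 and -1.44 ± 0.11.

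Some genes differed from singletons in clones of 2 to 4 cells and not in expanded clones, or the reverse, without a test of the difference. GZMK was at 151, 149, 383 and 159 CPM in dogs 1, 2, 3 and 4 (1.21 ± 0.23, adjusted p = 0.0013, edgeR), KLRG1 at 46.6, 30.2, 64.6 and 117 (0.96 ± 0.15, adjusted p = 0.00016, edgeR) and LGALS3 at 143, 196, 252 and 181 (0.78 ± 0.10, adjusted p = 3.7e-05, edgeR). ITGB1 (0.20 ± 0.15, adjusted p = 0.54, edgeR), GPR25 (-0.47 ± 0.16, adjusted p = 0.062, edgeR), FOXP3 (-0.42 ± 0.18, adjusted p = 0.18, edgeR), MKI67 (-0.44 ± 0.21, adjusted p = 0.23, edgeR) and CCR4 (0.20 ± 0.26, adjusted p = 0.74, edgeR) did not pass in these small clones. Cytotoxic effector genes rose in 7 of 12 tested there, Th1 genes in 11 of 13 and regulatory T cell genes in 0 of 8 with 1 lower.

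Among the 46 clones of at least 10 cells (11, 6 and 29 in dogs 2, 3 and 4), each clone was set against the singletons of its dog. CCR9 was above the singleton level in 45 of 46 clones, with a median of 266 and a highest value of 526 CPM. IL12RB2, CXCR3 and PRF1 were above it in 43 clones each and TBX21 in 40. PRF1 had no UMI in the other 3 clones. At its singleton levels of 6.11 to 7.76 CPM, 1 UMI was enough to put most clones above. For TBX21, 1 UMI was enough in some clones of dogs 2 and 3. ITGB1 was above it in 1 clone and had no UMI in 32, GPR25 was above it in none and absent from 37, and ADAM19 and ACTN1 were above it in none. MMP9 was above the singleton level in 22 clones and had no UMI in 24. At its singleton levels of 1.11 to 1.78 CPM, 1 UMI was enough to put any clone above, since 1 UMI was 3.28 CPM even in the clone with the most UMIs. These counts therefore do not show how even MMP9 was between clones. Apart from MMP9, most of these clones lay on the same side of their singletons for each of these genes. The clones hold most of the expanded cells in which these genes were called, so this is a description only.

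Killer cell genes were uneven between clones. KLRK1 was above the singleton level in 10 of 11 clones in dog 2, 6 of 6 in dog 3 and 18 of 29 in dog 4, with no UMI in 8 clones and up to 455 CPM in another. GZMK had no UMI in 23 of 46 clones and was above the singleton level in 6, KLRG1 had none in 24 and was above it in 9, and CCL5 had none in 24 and was above it in 10. At singleton levels of 14.8 CPM for KLRK1 and 16.4 CPM for CCL5 in dog 4, 1 UMI was enough in some of its clones. Clone 3 of dog 4 (28 cells) had GZMK at 699 CPM and KLRG1 at 461 CPM, above the singletons of its dog. With 34337 to 304609 UMIs per clone of at least 10 cells, a clone without a UMI of a gene can still express it at a low level.

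One clone differed from most others in CCR9, IL12RB2 and ITGB1. Clone 8 of dog 2, with 12 cells and 52878 UMIs, had no CCR9 and no IL12RB2 UMI, 22 ITGB1 UMIs (416 CPM, the only clone of this size above its singletons), 16 PDCD1 UMIs (303 CPM) and 222 GZMK UMIs (4198 CPM), and 4 IL7R UMIs (75.6 CPM). Its CXCR3 (11 UMIs, 208 CPM), PRF1 (4 UMIs, 75.6 CPM), TBX21 (2 UMIs, 37.8 CPM) and KLRK1 (7 UMIs, 132 CPM) lay above the singletons of dog 2. Its GPR25 (2 UMIs, 37.8 CPM), ACTN1 (3 UMIs, 56.7 CPM) and ADAM19 (no UMI) lay below them, as in most clones. At 18.9 CPM per UMI, the levels from so few UMIs are uncertain. All 12 cells carried the TRA as well as the TRB, and none of the cells with this TRB was CD8A single-positive. This clone was singled out after its values were seen. Its receptor is shown for that reason.
Dog 2 clone 8, TRBV7 with TRBJ2-6: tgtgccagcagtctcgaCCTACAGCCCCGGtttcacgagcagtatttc
Dog 2 clone 8, TRAV21 with TRAJ54: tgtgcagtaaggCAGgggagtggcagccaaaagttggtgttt
It supplied 82.5% of the GZMK UMIs of expanded cells in dog 2.

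**Figure D5:**
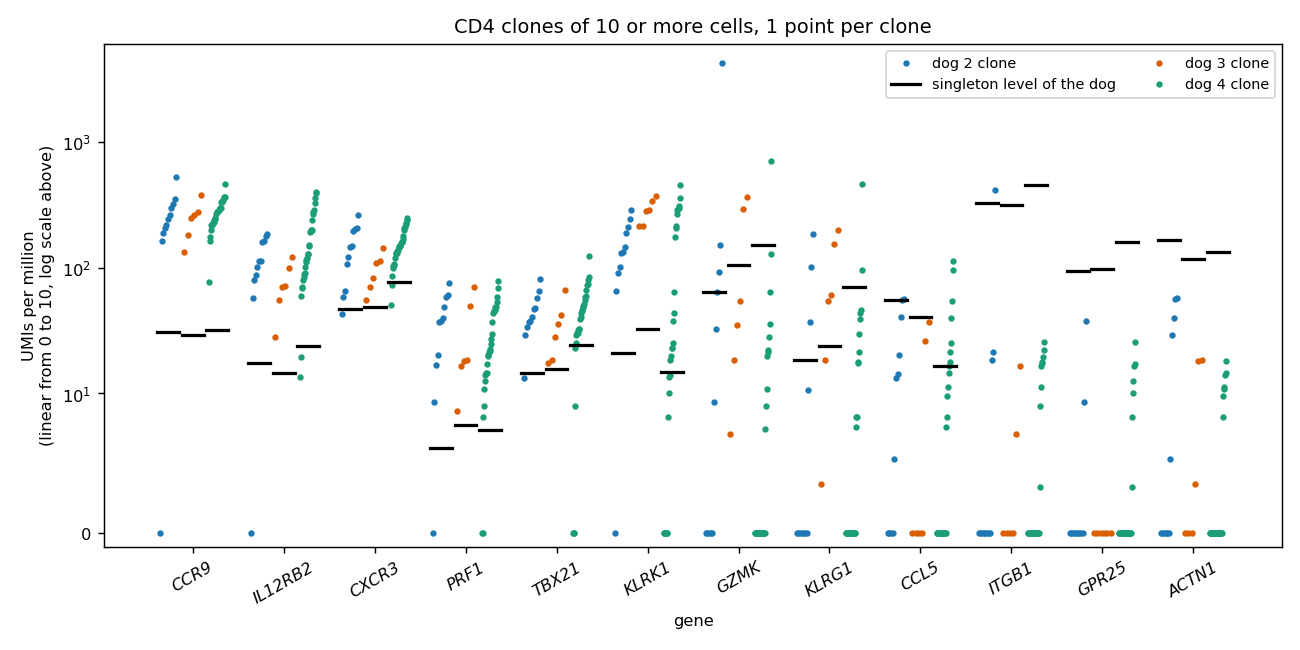
CPM (y axis, linear from 0 to 10 and on a log scale above) of 12 genes (x axis) in each CD4 clone of at least 10 cells, 1 point per clone and colours for dogs, with black lines for the singletons of the dog. CCR9 lies above the line in 45 of 46 clones and ITGB1 in 1, whereas GZMK spreads from 0 to 4198.

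In CD8A cells, 181 of 8173 genes were higher in expanded clones (2.21%) and 231 lower (2.83%), 5.04% in all. The difference of expanded from singleton cells was compared between CD4 and CD8A single-positive cells, where 153 expanded CD8A clones held 2625 cells and 1641 CD8A cells were singletons in the 4 dogs. A test of the difference between the lineages (edgeR, interaction of side and lineage with the dog as a block) called 120 of 8961 genes (1.34%), 80 (0.893%) with a more positive and 40 (0.446%) with a more negative difference in CD4 cells, and 12 and 7 without the block. Leaving out a dog gave 54 genes in all without dog 1, 50 without dog 2, 84 without dog 3 and 40 without dog 4. ITGB1 was at 168, 268, 98.3 and 172 CPM in expanded and 187, 294, 175 and 286 in singleton CD8A cells of dogs 1, 2, 3 and 4, and the lineages differed by -3.05 ± 0.37 in log2 fold change (adjusted p = 0.0012, edgeR). CCR9 rose in both, to 15.7, 97.9, 51.9 and 55.7 in CD8A cells from 17.5, 25.3, 33.4 and 28.3, but by more in CD4 cells (2.12 ± 0.26, adjusted p = 0.0012, edgeR), and dog 1 did not show the rise in CD8A cells. KLRK1 was high in CD8A singletons already, at 166, 275, 285 and 240.2, and its rise was larger in CD4 cells by 2.34 ± 0.44 (adjusted p = 0.014, edgeR). CCR7 fell more in CD8A cells, from 111, 122.5, 173 and 62.8 to 15.7, 18.6, 20.7 and 5.11 (difference 1.54 ± 0.31, adjusted p = 0.02, edgeR). CXCR3 and ICOS rose in expanded CD4 cells, and their differences between the lineages were 1.45 ± 0.22 (adjusted p = 0.0041, edgeR) and 1.09 ± 0.20 (adjusted p = 0.014, edgeR). For RFLNB, ADAM19, ACTN1 and GATA3 the lineages did not differ by this test (adjusted p = 0.69, 0.84, 0.065 and 0.99, edgeR), which does not show that they acted alike.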

How the data were processed

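Single-cell 5' gene expression and V(D)J sequencing of sorted TCRαβ+ blood T cells of 4 Beagles was analysed, with 1 library of each kind per dog. Matrices of unnormalized UMI counts and lists of rearrangements with their UMI counts were deposited, made with Cell Ranger 5.0.1 (from the submitters' processing notes) on CanFam 3.1. For the V and J gene set, the source was not stated in what was used here. The gene list of dog 1 could not be used, and the symbols of dog 2 were taken for all dogs (across matrix rows, log totals in dog 1 gave a Pearson's r of 0.989 to 0.991 with the other dogs). Barcodes were kept if they had 500 to 20000 UMIs, no more than 10% of them from 13 mitochondrial genes. Doublets had been gated out in the sort, cells with more than 1 TRB were left out, and no doublet caller was run.

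UMIs were summed per dog and side, which gave 7 sums because dog 1 had no expanded clone, and tested with edgeR 4.0.16 (R 4.3.3, quasi-likelihood test, TMM, low counts filtered by edgeR, dog as a block, Benjamini-Hochberg over all genes). Both sums of a dog come from the same animal and library, which is where the pairing comes from. Levels that differ between dogs are taken up by the block. With 1 library per dog, the difference between the sides is set against its spread over the dogs that had both sides. edgeR combines that spread with one estimated over all genes, so its p-values do not rest on the spread over 3 dogs alone. In the test between lineages, 1 block per dog served both lineages. Its spread therefore also takes in how the lineages differed from dog to dog. Scripts were tested on simulated data. Named genes were the 15 highest and 12 lowest log2 fold changes among called genes with at least 20 CPM and the same direction in all 3 dogs with both sides (planned for 4), the 3 members of lowest p in each of 25 lists, and 15 genes followed per clone. A few of these that add nothing to their list are not printed, and some genes, 1 of the naive markers among them, are not reported here. The members and lists were chosen with earlier results of these data known. Single values were compared with exact two-sided sign-flip permutation tests over dogs. Alternatives included DESeq2 1.42.0, other clone definitions and sizes, thinning each cell to 2000 UMIs and leaving out each dog.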

Additional observations from a re-analysis of the deposited data

Results flagged for a closer look

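In 145 groups of 4 dogs, 1 dog lay apart from the others by Dixon's criterion in 11, where chance alone flags about 1 in 20 groups. Among singletons, dog 1 was lowest for CCR9 (8.55 CPM, the others 29.2 to 32.1) and for ACTG1 (1660.3 CPM), dog 3 was lowest for JUNB (173 CPM), and dog 4 was highest for CXCL10 (49.3 CPM). Among clones of 2 to 4 cells, dog 1 was highest for RFLNB (21.9 CPM) and RGS10 (101 CPM) and lowest for MYO1F (90.5 CPM), dog 2 was highest for S100A8 (3404 CPM), dog 3 was highest for KLRD1 (72.4 CPM) and GZMK (383 CPM), and dog 4 was highest for CD27 (219 CPM).

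The difference of expanded from singleton cells was not the same in CD4 and CD8A cells for 19 of the named genes (edgeR's quasi-likelihood test of the interaction, adjusted p under 0.05). Over all genes it was 120 of 8961 (1.34%). Many named genes were chosen by their difference in the same CD4 cells, so these counts cannot be set against each other. The log2 fold change was more positive in CD4 cells for KLRK1 by 2.34, CD244 by 2.32, PTPN13 by 2.32, C9H17orf64 by 2.29, CCR9 by 2.12, IL12RB2 by 2.09, MCM5 by 2.02, CSRP1 by 1.55, CCR7 by 1.54, CXCR3 by 1.45, ICOS by 1.09, IL7R by 0.94 and S100A8 by 0.88. It was more negative in CD4 cells for CRTAM, at -3.63, ITGB1 at -3.05, TXK at -1.86, DUSP2 at -1.64, NR4A2 at -1.52 and JUNB at -1.13. For CCR7 the positive value stands for a smaller fall in CD4 than in CD8A cells.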

How the results depend on the processing

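Of 1308 values that the 66 called named genes took under alternatives, 1259 kept their direction and call, 46 lost the call and 3 turned direction, and 39 genes kept their call under every alternative run. All 66 were kept without dog 1 and without its cells with a TRB of dog 4. With the dog as a block and no expanded sum in dog 1, these values could hardly differ. Without the dog block (unpaired sums in place of the pairing by dog) 882 genes differed between expanded and singleton cells, 28 between clones of 2 to 4 cells and singletons, and 19 between the CD4 and CD8A differences, against 1421, 846 and 120 with it. The count for expanded cells was 516 with DESeq2, 884 with at least 2 CD4 UMIs, 869 with at most 5 cells per clone, 718 after thinning and 252 in cells without naive marker UMIs, and leaving out 1 dog gave 832 (without dog 4) to 1583 (without dog 3). For clones of 2 to 4 cells DESeq2 gave 456 and leaving out 1 dog 423 (without dog 2) to 827, and for the difference between lineages no filter on low counts gave 308 and leaving out 1 dog 40 (without dog 4) to 84. The share of cells with the main TRA was 100% in clones of 10 or more and 99.46% with at least 2 CD4 UMIs, and the TRBJ2 difference turned to 8.83 and 6.11 percentage points with clones of 3 or more and 10 or more. In cells without naive marker UMIs log2 fold changes turned for RGS10 (0.89), ISG20 (-0.079), S100A8 (-0.0063), GZMK (-0.11), KLRG1 (-0.91) and CCL5 (-0.31). KLRG1 also turned with at least 2 CD4 UMIs (-0.12), after thinning (-0.014) and without clones that had CD8A cells (-0.73), CCL5 with at least 2 CD4 UMIs (-1.41) and clones of 10 or more (-1.17), LGALS3 after thinning (0.052), with clones of 3 or more (0.0034) and without the dog block (0.17), and PDCD1 without clones that had CD8A cells (0.10). Leaving out 1 dog gave -0.20 (without dog 2) to 0.81 for GZMK, -0.41 (without dog 3) to 0.95 for KLRG1 and -0.42 to 0.37 (without dog 4) for LGALS3. The cause of these changes was not tested. Leaving out clones with any cell with a CD8A UMI, and dog 1 cells with a TRB of dog 4, was chosen after seeing the data. MMP9, RFLNB, CD244, EOMES, CRTAM, CCR7 and LEF1 were not tested in cells without naive marker UMIs. With 212 to 726 expanded cells per dog, a gene with few UMIs can differ undetected at this depth.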
